A study of Mus musculus with 8 samples.

Results

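The 10 genes Lifr, Il6st, Jak1, Stat3, Socs3, Socs2, Cish, Bcl3, Pim1 and Pim3 carry the signal of leukaemia inhibitory factor (LIF) into mouse embryonic stem cells, restrain it or are switched on by it. Every non-control probe that the scanner tables name for one of these genes was taken, which gave 17 of 41174 probes, for 10 of 27962 gene names on the array. Of the 17, 13 bear an accession that RefSeq assigns to the same gene, the other 4 bear a cDNA clone's accession that is no RefSeq transcript, and accessions gave no further probe to these genes. The probes were read on 4 Agilent whole-genome arrays with 2 colours, all on 1 slide with 1 scan day.

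The cells were R1, a line of pluripotent cells derived from the early mouse embryo, grown on gelatin in a medium with serum replacer. The 4 LIF samples were kept in LIF without feeder cells. The 4 butyrate samples were kept for 15 passages without LIF in medium with sodium butyrate at 0.2 mM; butyrate is a fatty acid known to block histone deacetylases. The loss of LIF and the addition of butyrate cannot be told apart, because no group had only one of them. On every array butyrate RNA was labelled with Cy5 and LIF RNA of the matching replicate with Cy3, so the dye and the treatment likewise cannot be told apart. The labels used here give no passage number for the LIF samples, so time in culture may also differ between the groups. The 4 replicates are described as independent, without saying what was repeated, so a p-value here reflects the spread of these samples alone, part of which may be technical. In RNA from whole cultures, fewer cells of a type and less RNA per cell cannot be told apart.

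LIF binds its receptor chain, encoded by Lifr, which then pairs with the shared chain gp130, encoded by Il6st. The receptor-bound kinase JAK1 phosphorylates both chains and the transcription factor STAT3, which enters the nucleus and activates targets that hold mouse embryonic stem cells undifferentiated. Among those targets are feedback inhibitors of the SOCS family, which end the signal at the receptor, the coregulator gene Bcl3 and the Pim kinases. STAT proteins bind the palindrome TTCNNNGAA.

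RefSeq promoter windows of build GRCm38.p6, from 250 bases before to 50 after a start site, were at hand for 9 of the 10 genes (11 windows), all except Socs2. The palindrome, which reads alike on both strands, was found in the windows of 2 genes, Socs3 and Cish, and in 8.30% of all 32851 windows. The matches are shown in capitals because both genes encode SOCS inhibitors of the same pathway, together with the stretch before Bcl3, the gene with the largest decrease, which held no match. The Socs3 match began at position −154 from the start site of its window (chr11:117969501-117969530, minus strand, flanks included). It lies inside the annotated Socs3 gene (chr11:117966079-117970336), not before it. The Lifr windows also lie inside the annotated gene (chr15:7090610-7197489). A further Pim1 window (chr17:29492835-29493134) lies inside its annotated gene too (chr17:29490785-29496111). The Cish matches began at bases 1 and 12 of the transcript (chr9:107296659-107296678, plus strand), and 0.457% of all windows held at least 2 matches. The Bcl3 stretch is the part of its window that lies before the annotated gene (chr7:19822825-19823005, minus strand). A match describes these letters only.
Socs3: gaaaccagccTTCTTAGAAgggaggggggg
Cish: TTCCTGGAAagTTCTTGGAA
Bcl3: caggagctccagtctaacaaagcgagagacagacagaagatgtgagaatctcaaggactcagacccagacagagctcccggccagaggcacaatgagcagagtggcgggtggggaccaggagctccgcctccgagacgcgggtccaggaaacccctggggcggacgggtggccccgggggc

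The comparison asked how RNA of these genes differed between cells kept in butyrate and cells kept in LIF. The targets and feedback genes were lower in butyrate, Bcl3 by 5.27-fold, Socs3 by 3.02-fold and Socs2 by 2.39-fold, and so were the receptor chain Lifr and Stat3 itself. The chain Il6st did not pass the test, and the kinase Jak1 was higher by 1.35-fold. Taking the brightest tested probe of each gene as its leading probe, 8 of the 10 genes were lower, 1 was higher and 1 did not pass (limma, adjusted p under 0.05 over all 25661 probes tested). Over all 17312 genes represented the same way, 32.9% were lower and 41.3% were higher. The 10 genes were chosen with earlier results of these data known. Their counts beside those of all genes or probes are thus no independent evidence of a direction. Decreases of at least 2-fold were found for 4 of the 10 genes, Bcl3, Socs3, Socs2 and Lifr, against 1.96% of all genes. Lifr reached 2-fold by its leading probe only, and its 3 other probes gave log2 ratios of −0.38, −0.31 and −0.22. That leading probe was the brightest of Lifr in LIF (mean level 8.36) but not in butyrate (7.15, against 7.19 for A_51_P113182). The median log2 ratio of the 10 genes was −0.86, and that of all probes tested was 0.03. By probe, 16 of the 17 were tested, and 72.2% of all probes tested passed. Of the 16, 12 were lower (32.5% of all probes), 2 were higher (39.7%) and 2 did not pass. Decreases of at least 2-fold were seen for 5 of the 16, against 1.61% of all probes. The groups' levels did not overlap for 14 of the 16, against 65.3% of all probes, and for 11 of these all butyrate levels lay below all LIF levels, against 28.6%. In an alternative without loess, called centring on the median below, each array was only set to a median of 0 over its non-control spots. Then 4 of the 10 genes were lower (Lifr, Socs3, Socs2 and Bcl3) and 2 higher (Il6st and Jak1). The median of the tested probes, which leave out dim ones, moved to 0.37, and 92.0% of the called probes were higher, against 55.0%. The ratios that follow thus stand relative to the level loess puts at 0.

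**Figure D1:**
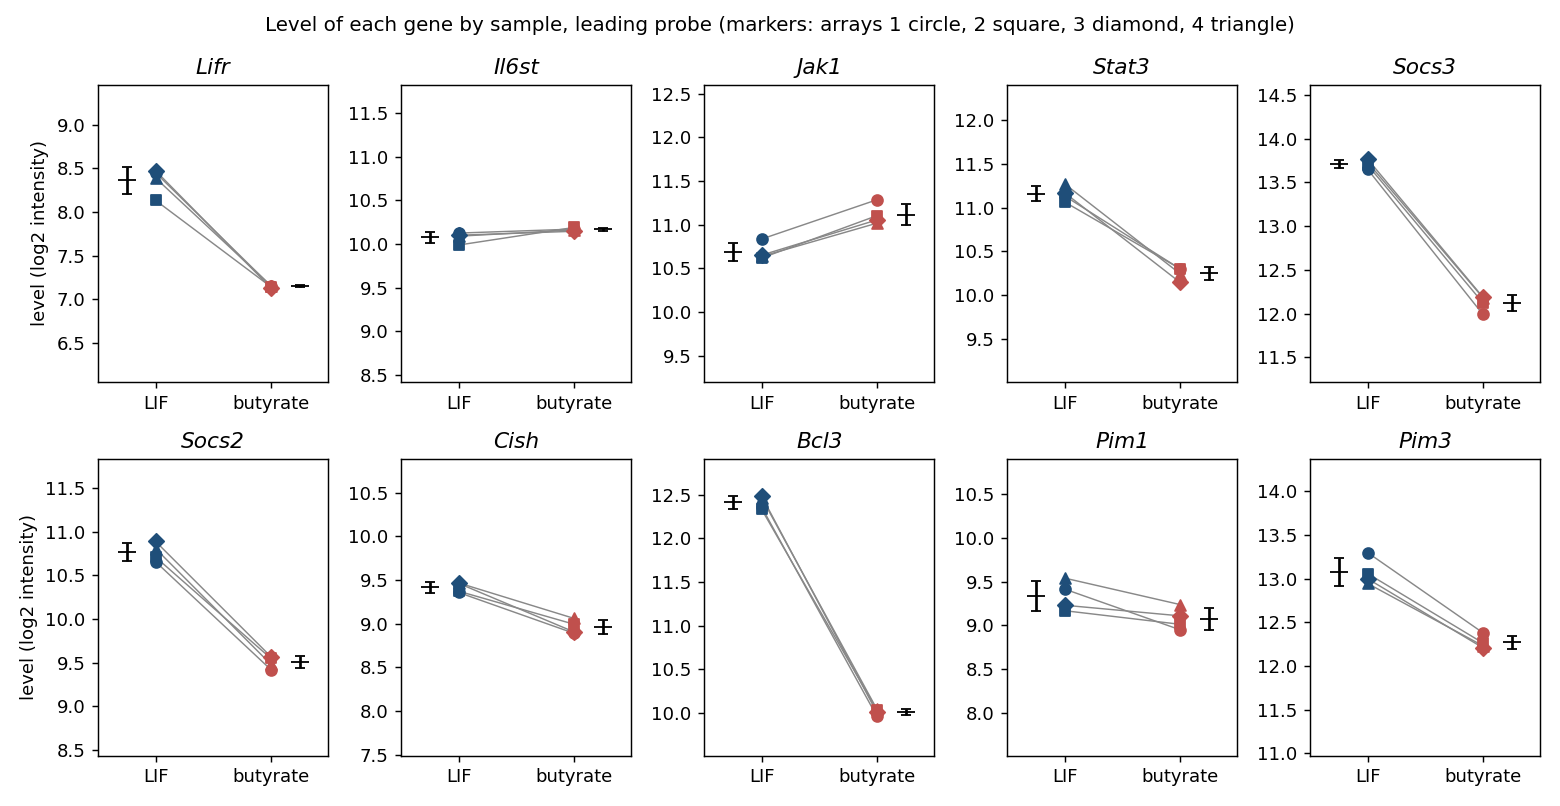
The vertical axes give the level of each gene as log2 intensity for its leading probe in the LIF (blue) and butyrate (red) samples, lines join the samples of an array, and the side bars are the mean and SD of 4 samples. All panels span the same range; the groups overlap for Pim1 only, and Bcl3 has the steepest lines (mean 12.41 in LIF, 10.01 in butyrate).

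The receptor came first. Lifr, the chain that binds LIF, was read by 4 probes, all of the same transcript accession. The brightest, A_52_P579352, gave log2 levels of 8.45, 8.13, 8.47 and 8.39 in the LIF samples of arrays 1 to 4, and of 7.16, 7.14, 7.13 and 7.16 in the butyrate samples. The groups did not overlap, the LIF sample of array 2 was the lowest of its group, and the butyrate samples lay close together (SD 0.01). That SD holds for the levels as processed here, since the scanner software's signals of the butyrate samples ranged from 168.5 to 215.9. The log2 ratio of butyrate over LIF was −1.21 ± 0.16 (SD, n = 4 arrays), which is 2.32-fold lower (limma adjusted p = 5.1e-07). Of all tested probes, 0.838% had a lower ratio.

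The 3 other Lifr probes also passed, with smaller ratios of −0.38 ± 0.15, −0.31 ± 0.07 and −0.22 ± 0.10. Their levels in LIF were dimmer, with means of 7.49, 7.49 and 6.54, and A_52_P192699, the dimmest, was well above background in 4 LIF samples and 2 butyrate samples. Levels of different probes are not comparable with one another, so the probes were compared by their ratios only. How far the 4 probes lay apart changed with the method. By the log ratio of the scanner software the leading probe gave −2.07, A_52_P192699 gave −1.57, A_52_P297113 gave −0.88 and A_51_P113182 gave −0.75. All 4 passed. With centring on the median the leading probe gave −0.81 and passed, while A_51_P113182 lay at 0.01 and A_52_P297113 at −0.08, and neither passed. The dimmest, A_52_P192699, gave −0.33 and passed (limma adjusted p = 0.00935).

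Il6st encodes gp130, the signalling chain that LIF shares with interleukin 6 and related cytokines. Its levels were 10.13, 9.99, 10.10 and 10.09 in LIF and 10.17, 10.19, 10.15 and 10.16 in butyrate. Every butyrate sample lay above every LIF sample, by little. The log2 ratio of 0.09 ± 0.07 did not pass (limma adjusted p = 0.0762), and its 95% interval ran from −0.004 to 0.19. The ratio of array 2, 0.20, stood apart from the other 3, at 0.05 to 0.07, and without that array it was 0.05. By the log ratio of the scanner software the sign turned (−0.03), and by the authors' value table it did too (−0.06). Centring on the median gave 0.69, which passed as higher (limma adjusted p = 0.00639).

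Jak1, the kinase bound to the receptor chains, rose. Its leading probe gave levels of 10.83, 10.62, 10.65 and 10.64 in LIF and 11.28, 11.10, 11.05 and 11.02 in butyrate, with array 1 highest in both groups and no overlap between them. The log2 ratio was 0.43 ± 0.05 (1.35-fold higher, limma adjusted p = 1.31e-05). The second probe gave 0.49 ± 0.03 (1.40-fold, limma adjusted p = 4.43e-06), so the probes were alike in direction and close in size. The increase was ordinary in size for these arrays, since 83.3% of all tested probes had a lower ratio than the leading probe. Centring on the median moved that ratio to 1.02.

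Stat3, the transcription factor that carries the signal into the nucleus, fell. The probe A_51_P201480, printed 10 times on each array, gave mean levels of 11.14, 11.07, 11.17 and 11.27 in LIF and 10.30, 10.30, 10.15 and 10.25 in butyrate. The groups lay well apart. The ratios of arrays 1 and 2 were −0.83 and −0.76, and those of arrays 3 and 4 were −1.03 and −1.03. Within an array the 10 spots had an SD of 0.02 to 0.12. Over the 4 arrays the log2 ratio was −0.91 ± 0.13 (1.88-fold lower, limma adjusted p = 1.4e-06), whereas centring on the median gave −0.32, which did not pass (limma adjusted p = 0.136). A second probe, A_52_P569499, which the array names Stat3 from a cDNA clone, lay too close to background on all 4 arrays, in both channels, to be tested.

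**Figure D2:**
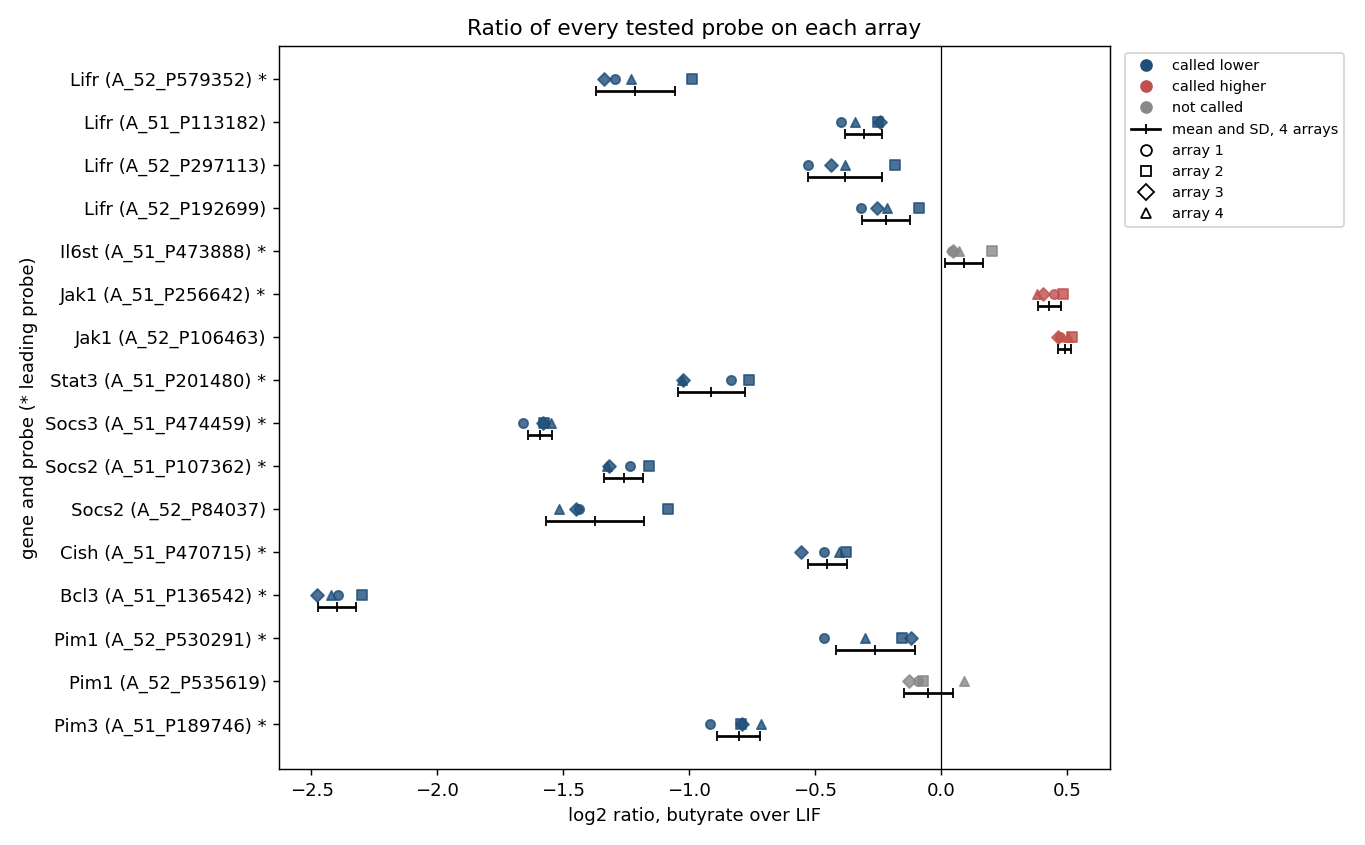
Each row is a tested probe and the horizontal axis is its log2 ratio of butyrate over LIF, with 1 marker per array and the mean and SD of 4 arrays below the markers. All 4 Lifr probes and both Socs2 probes lie below 0 and both Jak1 probes above it; Bcl3, at −2.40, lies farthest from 0.

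Socs3 encodes the inhibitor that binds gp130 and blocks JAK1, and its transcription is a classic readout of active STAT3. Its levels were 13.65, 13.70, 13.77 and 13.73 in LIF and 11.99, 12.12, 12.19 and 12.18 in butyrate. The gap between the groups was far wider than the spread within either (SD 0.05 and 0.09). The ratios of −1.66, −1.58, −1.58 and −1.55 averaged −1.59 ± 0.05 (limma adjusted p = 1.83e-08). Over the alternatives it ranged from −1.69 with the authors' value table to −1.05 with centring on the median, and it passed under each one run.

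Socs2, best known as a brake on growth hormone signalling, was read by 2 probes of different accessions. The leading probe gave levels of 10.66, 10.71, 10.89 and 10.81 in LIF and 9.42, 9.55, 9.57 and 9.48 in butyrate, a log2 ratio of −1.26 ± 0.08 (limma adjusted p = 8.11e-08). The second probe, of a cDNA clone, gave −1.37 ± 0.19 (2.59-fold lower, limma adjusted p = 5.92e-07). By the log ratio of the scanner software the second probe gave −2.06, and centring on the median moved the probes to −0.66 and −0.89. Its LIF level on array 2, 8.60, stood apart from the 8.96 to 9.01 of the other arrays, while its butyrate levels of 7.49 to 7.56 were close together.

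Cish, the SOCS family member known mostly as a target and inhibitor of STAT5, fell less. Its levels were 9.36, 9.37, 9.46 and 9.47 in LIF and 8.89, 8.99, 8.90 and 9.06 in butyrate, without overlap. The log2 ratio was −0.45 ± 0.08 (1.37-fold lower, limma adjusted p = 1.99e-05). Centring on the median turned it to 0.12, which did not pass (limma adjusted p = 0.429). The Cish window held 2 copies of the palindrome and the Socs3 window 1, while their log2 ratios were −0.45 and −1.59. Bcl3, with none in its window, was at −2.40. The other genes with a window held none either, and ranged from −1.21 for Lifr to 0.43 for Jak1. Sites outside the windows were not searched, and a relation of matches to ratios was not tested.

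Bcl3, an atypical member of the IκB family that acts in the nucleus, had the largest change of the 10. The LIF samples gave 12.36, 12.34, 12.49 and 12.47, and the butyrate samples 9.97, 10.04, 10.01 and 10.05. The 4 ratios, −2.40, −2.30, −2.48 and −2.42, averaged −2.40 ± 0.08 (limma adjusted p = 7.02e-09). A lower ratio was found for 0.0429% of all tested probes. It was −1.81 with centring on the median and −2.56 with the scanner software's log ratio.

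The Pim genes encode serine/threonine kinases that support survival and growth and need no activation step after synthesis. Pim3 gave levels of 13.30, 13.06, 13.00 and 12.94 in LIF and 12.38, 12.26, 12.21 and 12.23 in butyrate, with array 1 highest in both groups. It was 1.75-fold lower (log2 ratio −0.80 ± 0.08, limma adjusted p = 8.39e-07), and centring on the median gave −0.25, which did not pass (limma adjusted p = 0.181). Pim1 gave levels of 9.42, 9.17, 9.23 and 9.54 in LIF and 8.95, 9.01, 9.11 and 9.24 in butyrate, and here the groups overlapped. Its log2 ratio passed at −0.26 ± 0.16 (1.20-fold lower, limma adjusted p = 0.00389), with ratios from −0.47 on array 1 to −0.12 on array 3, but centring on the median turned it to 0.31, which did not pass (limma adjusted p = 0.0847). A second, dim Pim1 probe gave −0.05 ± 0.10 and did not pass (limma adjusted p = 0.342), although it passed as lower by the log ratio of the scanner software (−0.42) and the authors' value table (−0.44). Its butyrate level on array 4, 6.75, stood apart from the 6.59 to 6.61 of the other arrays.

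Under centring on the median, each gene was also set against the tested probes of like brightness (mean log2 intensity within 0.5). Those probes had medians of 0.46 to 0.65 for the 10 leading probes. Relative to them Bcl3 lay at −2.41, Socs3 at −1.59, Socs2 at −1.31, Lifr at −1.27, Stat3 at −0.94, Pim3 at −0.80, Cish at −0.49 and Pim1 at −0.30. Il6st lay at 0.04 and Jak1 at 0.41. This subtraction takes out a trend with brightness, as loess does, so likeness to the loess ratios follows from how it was made. The differences are descriptions with no test.

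**Figure D3:**
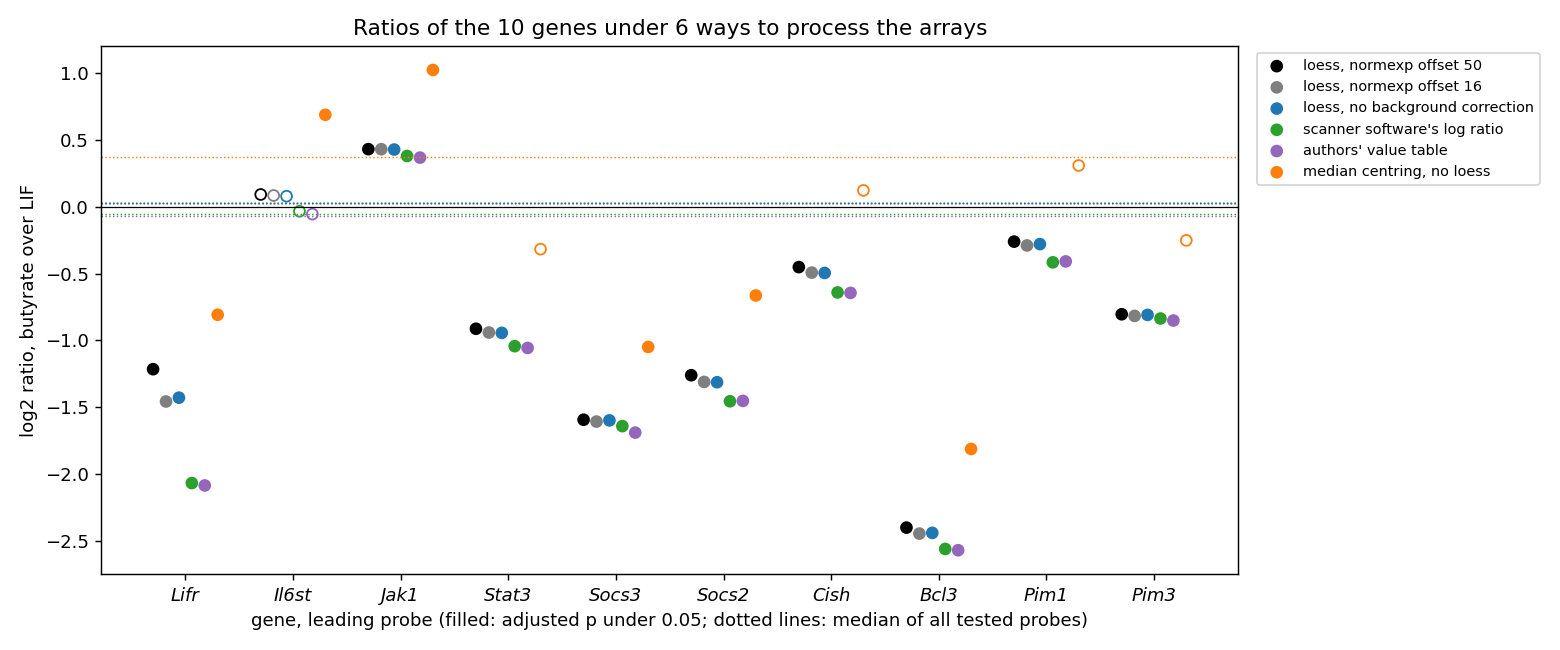
The vertical axis is the log2 ratio of the leading probe of each gene, with 1 colour for each of 6 ways to process the arrays, filled where the adjusted p was under 0.05, and dotted lines mark the median of all tested probes. The spread between settings is widest for Lifr, from −2.08 to −0.81, and centring on the median lifts every gene together with the median of all tested probes (0.37).

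The other genes of the pathway were taken from 6 lists by role, with 65 of 73 entries tested by the brightest probe of each gene. Of the 65, 48 passed, 27 lower and 21 higher, where 74.2% of all genes passed, and their median log2 ratio was −0.04. With centring on the median 7 were lower (Osm, Ebi3, Klf4, Tfcp2l1, Gbx2, Mycn and Mras) and 36 higher.

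Among 8 ligands, 3 rose, 3 fell and 2 did not pass. Il11, a cytokine that signals through gp130, was 1.72-fold higher (log2 ratio 0.78 ± 0.21). Ebi3, a subunit of interleukin 27, fell by 0.78 ± 0.17 on the log2 scale and Osm, oncostatin M, which also signals through gp130, by 0.43 ± 0.13. No probe was named Lif in the tables used here. Of 5 other receptor genes, 3 rose and 1 fell. Osmr, the oncostatin M receptor chain that pairs with gp130, was not well above background in LIF but was on all 4 arrays in butyrate. Its means of 6.48 and 6.94 differ by 1.37-fold as measured (limma adjusted p = 0.000123). It entered the test through the butyrate channel only, so its p compares a signal with a level near background. The changes of Il11ra1 (0.27 ± 0.05), Cntfr (0.24 ± 0.11) and Il27ra (−0.18 ± 0.08) were small, and Il27ra no longer passed with centring on the median.

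Of 10 kinases, adaptors and ERK-branch genes, 4 rose and 3 fell. Jak2 was 2.60-fold higher (log2 ratio 1.38 ± 0.14), with ratios of 1.45, 1.21, 1.52 and 1.33. Ptpn11, which encodes the phosphatase SHP2 that links gp130 to ERK, was 2.25-fold higher (1.17 ± 0.07). The JAK family members Tyk2 (−0.91 ± 0.12) and Jak3 (−0.60 ± 0.24) were lower with loess, and neither passed with centring on the median. Among 6 other STAT genes, Stat5b rose by 0.89 ± 0.05 on the log2 scale, while Stat4 (−0.72 ± 0.08), Stat6 (−0.44 ± 0.12) and Stat2 (−0.25 ± 0.14) fell, of which none passed with centring on the median, where Stat6 (0.14) and Stat2 (0.32) lay above 0.

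Of 14 other inhibitors, 3 rose, 5 fell and 6 did not pass. Socs1, a close relative of Socs3 that also blocks JAK kinases, was 1.83-fold higher (log2 ratio 0.87 ± 0.08). Pias3, an inhibitor of STAT3, was 1.52-fold lower (−0.61 ± 0.13), Pias4 was 1.35-fold lower (−0.44 ± 0.13) and Pias1 was 1.27-fold higher (0.34 ± 0.07). With centring on the median Pias3 and Pias4 did not pass and Pias4 lay at 0.08. Of 22 other LIF and STAT3 targets, 12 fell, 7 rose and 3 did not pass, with a median of −0.20. Gbx2, a homeobox gene, was 7.03-fold lower (−2.81 ± 0.20), Tfcp2l1, a transcription factor of naive cells, 3.88-fold lower (−1.96 ± 0.33) and Mras, a small GTPase, 3.56-fold lower (−1.83 ± 0.04). Pramel7, which is also a STAT3 target in these cells, was 2.90-fold higher (1.54 ± 0.23). These targets went both ways. The lists were drawn with earlier results of these data known, so their counts are no independent evidence of a direction.

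**Figure D4:**
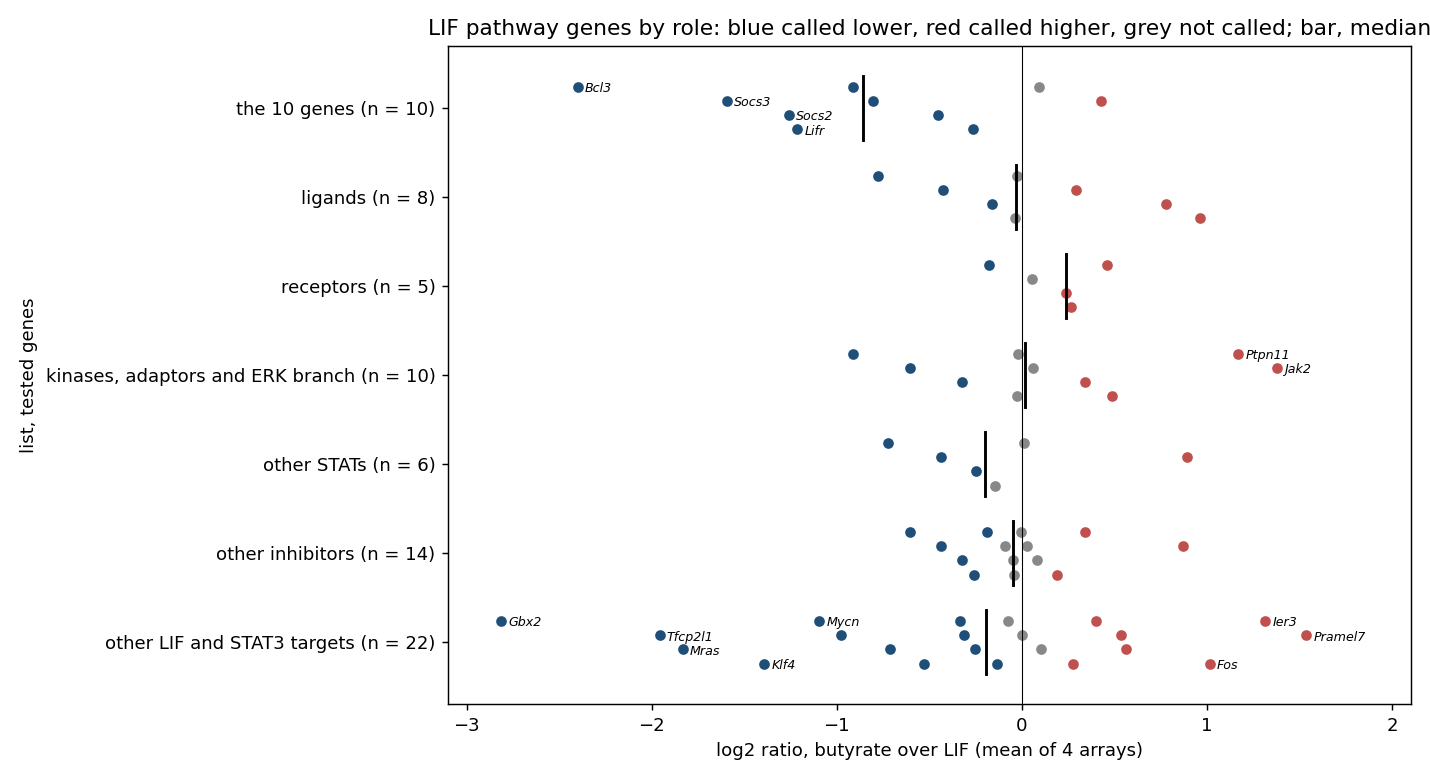
Each point is a gene, the horizontal axis is its mean log2 ratio of butyrate over LIF over 4 arrays, rows are the 10 genes and the 6 role lists, colours give the call, bars the median of a row, and names mark mean log2 ratios beyond 1 in either direction. The 10 genes have a median of −0.86, and the medians of the lists lie between −0.20 and 0.24.

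The genes nearest to Socs3 over the 4 ratios, by Euclidean distance, were Esrrb (0.104), a nuclear receptor of the stem cell network, Fblim1 (0.115) and Tcea3 (0.136). Those nearest to Bcl3 were Dpys (0.15), Nr0b1 (0.194) and Igsf21 (0.319). Their mean log2 ratios were −1.58, −1.63 and −1.62 beside −1.59 for Socs3, and −2.41, −2.42 and −2.52 beside −2.40 for Bcl3. Fewer genes were near Bcl3 than near Socs3, with 2 and 9 genes within a distance of 0.2. Ratios as low as that of Bcl3 were rarer, with 0.0429% of tested probes below it and 0.3% below Socs3. A fixed distance is thus likely to hold fewer genes there. With only 4 arrays this likeness is a description.

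Markers of several cell types moved with the treatment, and their part in these results was not tested. Beside the counts below, 32.9% of all genes were lower and 41.3% higher, each by its brightest tested probe. Of 9 stem cell markers tested, 7 were lower and 1 higher, with Esrrb (−1.58 ± 0.05) and Pou5f1 (−1.57 ± 0.22) lowest and Nanog higher (0.23 ± 0.05), and the summed intensity of the list was 155363 to 165840 in LIF and 107073 to 117506 in butyrate. All 9 were well above background in both groups, and Dppa5a was saturated in both. Such sums add probes whose levels are not comparable, and the brightest weigh most, here Dppa5a (mean level 16.30 in LIF). They do not describe a list as a whole. With centring on the median Pou5f1 (−1.01), Esrrb (−0.999), Sox2 and Utf1 still passed as lower. All 10 trophoblast markers were higher, led by Krt19 (2.93 ± 0.09) and Cdx2 (2.77 ± 0.45). Tfap2c changed least (0.15 ± 0.11), with a ratio of −0.01 on array 4. The summed intensity of the list went from 33204 to 37266 in LIF to 131129 to 134513 in butyrate. Krt8 and Krt18, saturated in butyrate at a mean level of 15.67 each, weighed most in the butyrate sum. Elf5 was not well above background in LIF. Of 9 fibroblast markers, 7 were higher, with Col1a1 at 4.15 ± 0.16 and Postn at 3.22 ± 0.47. The 2 lower ones were Thy1 (−0.18 ± 0.06) and Twist1 (−0.24 ± 0.07). The sum went from 2077 to 2395 in LIF to 10507 to 10922 in butyrate, where Col1a1 weighed most (mean level 12.72). Dcn, counted as higher at 0.09 ± 0.04, was not well above background in LIF, and Lum was not tested. Of 7 endoderm markers 6 were higher, with Sox17 at 1.03 ± 0.17 and Foxa2 at 0.69 ± 0.12. The sum went from 1093 to 1266 in LIF to 1752 to 1809 in butyrate, and Afp was not well above background in LIF. Of 6 haematopoietic markers 5 were higher, with Csf1r at 0.99 ± 0.31 and Cd34 at 0.94 ± 0.09, and 1, Gata1, was lower (−0.16 ± 0.06). The sum went from 983 to 1151 in LIF to 1506 to 1755 in butyrate. Lyz2 and Hbb-bh1 were not well above background in LIF. Like Elf5, Dcn and Afp, they entered the test through the butyrate channel only. The haematopoietic markers Ptprc and Spi1 and the endoderm gene Ttr were not well above background on any array.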

How the data were processed

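Members and lists were chosen with earlier results of these data known. Agilent Feature Extraction 9.1 read the scans, per the submitters' processing notes. Each deposited scanner file holds an intensity for every spot in both channels and, per the file headers, a log10 ratio of Cy5 over Cy3. The authors' value table holds log2 values with a median of 6.487 in every column, by a tool not given in the sources used here. As an array's 2 samples were scanned together, there were 4 distinct scanner files for 8 samples.

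Mean signals were corrected with limma 3.58.1 in R 4.3.3 (normexp with median backgrounds and an offset of 50, which understates folds of dim probes) and then normalized within arrays by loess, in which control spots had no weight. Of 45018 spots on an array, 43379 were probes for genes; 14 outlier spots in all were dropped, and spots of a probe were averaged. A probe was tested if it was well above background on at least 3 arrays in either channel (25661 of 41174). lmFit and eBayes compared the 4 log2 ratios with 0, with Benjamini-Hochberg adjustment over probes, and limma's 95% intervals are given. Levels are log2 channel intensities after loess and Aquantile. The fit was tested on simulated data.

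Samples of the same number are paired by their array: their deviations from the group means correlated at 0.25, 0.15, 0.30 and 0.21, against −0.22 to 0.09 for other pairs. Median signals ranged from 62.8 to 66.0 for Cy3 and from 110.0 to 111.4 for Cy5, with 57.9% to 61.2% and 62.7% to 63.9% of spots well above background. The number of arrays limits the precision.

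Genes named are all members, the called genes with the largest change and 1 sign on all arrays (up to 4 of a pathway list and 2 of a marker list), and the 3 genes nearest to Socs3 and to Bcl3; any other gene was picked with its values in view. One gene that the rule names is not reported here. Alternatives changed the background correction, normalization, filters, probes per gene, variance trend, replicate block and replicates used, or took the authors' table. Python 3.11.15 with matplotlib 3.10.9 drew the figures.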

Additional observations from a re-analysis of the deposited data

Results flagged for a closer look

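In 4 of 48 groups of 4 values of the tested member probes, 1 value stood apart from the other 3 by more than Dixon's 95% limit. Chance flags about 1 group in 20. The log2 ratio of Il6st on array 2 was 0.20, against 0.05 to 0.07 on the others. The LIF level of the leading Jak1 probe on array 1 was 10.83, against 10.62 to 10.65. The LIF level of the second Socs2 probe on array 2 was 8.60, against 8.96 to 9.01. The butyrate level of the dim Pim1 probe on array 4 was 6.75, against 6.59 to 6.61.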

How the results depend on the processing

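Of the 10 genes, 8 were lower and 1 higher under each alternative except 2. Centring on the median gave 4 lower and 2 higher, and 7 lower and 36 higher among the other pathway genes. A random replicate block gave 2 higher, with Il6st at an adjusted p of 0.0449 (0.00639 to 0.47 over its alternatives). By probe, 237 of 249 values kept direction and call. Alternatives that changed only filters, probes per gene, variance trend or replicate block reused the same member ratios, so direction could not change there. Centring on the median changed direction or call for Lifr A_51_P113182 and A_52_P297113, Il6st, Stat3, Cish, the leading Pim1 probe and Pim3. Signs turned for Lifr A_51_P113182 (0.00925), Cish (0.12) and Pim1 (0.31) with centring on the median, and for Il6st with the scanner software's log ratio, at −0.0342, and with the authors' table, at −0.0558. The cause was not tested. Without each replicate in turn the members stayed at 8 and 1, and probes called over the array numbered 16371 to 18407, against 18538. With no replicate block 18038 probes were called, 8 members were lower and 1 higher, and no tested probe of a member changed its call. A block for slide or scan day was not run, since there was 1 of each. Dim probes, such as 3 of Lifr, are limited by signal over background.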

Other observations

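Related genes of the pathway went opposite ways, a pattern noted after their values were seen. Pim2 was higher (log2 ratio 0.54 ± 0.09) while Pim3 (−0.80 ± 0.08) and Pim1 (−0.26 ± 0.16) were lower. Socs1 was higher (0.87 ± 0.08) while Socs3 (−1.59 ± 0.05), Socs2 (−1.26 ± 0.08) and Cish (−0.45 ± 0.08) were lower, and Socs4, Socs5, Socs6 and Socs7 did not pass; centring on the median put these 4 higher, past the threshold. Jak1 (0.43 ± 0.05) and Jak2 (1.38 ± 0.14) were higher while Tyk2 (−0.91 ± 0.12) and Jak3 (−0.60 ± 0.24) were lower. Stat5b was higher (0.89 ± 0.05) while Stat3 (−0.91 ± 0.13) was lower. With centring on the median Cish and Pim1 turned to 0.12 and 0.31, and Stat3, Pim3, Tyk2 and Jak3 no longer passed. The differences between the genes were not tested.

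Immediate early genes among the LIF and STAT3 targets went both ways. Fos (1.02 ± 0.20), Junb (0.56 ± 0.08), Ier3 (1.31 ± 0.11) and Zfp36 (0.28 ± 0.09) were higher, Egr1 was lower (−0.25 ± 0.09) with loess and lay at 0.34 with centring on the median, and Ier2 (−0.07 ± 0.05) and Myc (0.00 ± 0.12) did not pass.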
